A study of Mus musculus with 2 samples.

Results

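The Hox cluster genes were described in a DNase-seq map of mouse urinary bladder, as 39 protein-coding genes whose symbol is Hoxa, Hoxb, Hoxc or Hoxd followed by a paralogue number. They are 39 of 21938 protein-coding genes in the GENCODE M21 annotation of the mm10 build. The members were chosen by symbol alone, and all 39 were kept whatever their values. The tissue came from female adult B6CASTF1/J mice aged 18 to 20 months, and both libraries, given as biological replicates 1 and 2, form 1 group with no treatment and no control. B6CASTF1/J animals carry 1 genome copy from C57BL/6 and 1 from CAST. The labels list both samples under 1 donor record and do not say whether they came from separate animals, so the spread between the libraries may be technical. With 1 group of 2 libraries no comparison between conditions exists and no test was run.

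Hox genes encode homeodomain transcription factors that give cells their position along the head-to-tail axis. In mammals they lie in 4 clusters, all genes of a cluster are read in the same direction, and their order along the chromosome matches the order of their expression along the body. Low paralogue numbers act towards the head and high numbers towards the tail. Polycomb complexes keep silent Hox genes closed, trithorax proteins keep active ones open, and CTCF, a zinc-finger protein that anchors chromatin loops, separates the open and closed parts of a cluster in several tissues. Adult fibroblasts and smooth muscle cells keep a record of their body position in the set of Hox genes that they express. The bladder arises at the caudal end of the trunk, where genes of paralogue groups 9 to 13 are expressed in the embryo.

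DNase I cuts DNA that is not covered by nucleosomes, and a peak is a region dense in cuts. Each peak carries a deposited signal, which behaves as a scaled count with a scale of its own in each library, so levels were ordered within a library. The exceptions are the 10 strongest window peaks and the leading genes of each gene list, which were taken by mean signal over the 2 libraries. A promoter was taken as 1 kb on either side of any transcription start site, and a gene's promoter signal is that of its strongest promoter peak. Footprints are short stretches inside peaks that are protected from cutting. The cluster window is the span of the cluster's genes with 50 kb on either side. Replicate 1 had 84591 peaks on all chromosomes, and replicate 2 had 112174. Peaks of 1 library could overlap each other, which 2 of the 96 peaks in the Hox windows did in replicate 1 and 11 of 110 in replicate 2. Markers of bladder cell types were read at their promoters. A promoter peak was present in both libraries at 9 of 10 urothelial genes, led by Klf5, Gata3 and Upk2, at 8 of 10 smooth muscle genes, led by Tpm1, Synm and Smtn, and at 5 of 5 fibroblast genes, led by Col1a1. Of all protein-coding genes 64.2% had a promoter peak in both libraries, so these counts alone do not set the tissue apart. Several specific markers were weak or were called in 1 library, among them Krt20 with 0.401 in replicate 1 and 0.345 in replicate 2, Acta2 with 0.742 and 0.716, Cnn1 with 0.742 and 0.619, and Trp63, Actg2 and Lmod1 with a peak in replicate 1 alone. Alb, Apoa1 and Serpina1a of the 5 hepatocyte genes had none in either library, while Apob had 0.878 in replicate 1 and 1.45 in replicate 2, above those weak markers, and Ttr had a weaker peak in both.

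The sites that carry most of the description of the clusters are shown first, all on the forward strand of mm10 and read from GRCm38.p6, the same assembly. They are the 6 peaks outside Hox promoters and annotated UTRs that were among the 10 strongest paired peaks of the windows or among the 3 with the lowest ratio of replicate 1 to replicate 2. Capitals mark bases inside a deposited footprint in both libraries. Hoxc peak 7 lies at chr15:102987521-102987700 between Hoxc9 and Hoxc8, in an intron of a long Hoxc5 transcript. Hoxd peak 13 lies at chr2:74702327-74702476 between Hoxd9 and Hoxd8, and Hoxb peak 10 at chr11:96278901-96279060 between Hoxb9 and Hoxb8. Hoxd peak 21 lies at chr2:74715841-74716040 in an exon of the antisense transcript Hoxd3os1 and an intron of Hoxd3. Hoxa peak 57 lies at chr6:52257061-52257220 in the unclassified transcript 9530018H14Rik between Hoxa11 and Hoxa13. Hoxb peak 1 lies at chr11:96145681-96145880 in an intron of Ttll6, outside the Hoxb13 end of the cluster.
Hoxc peak 7: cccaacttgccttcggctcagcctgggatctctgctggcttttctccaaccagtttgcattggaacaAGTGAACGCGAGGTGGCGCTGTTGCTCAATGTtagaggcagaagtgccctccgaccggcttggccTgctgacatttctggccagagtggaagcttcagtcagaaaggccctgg
Hoxd peak 13: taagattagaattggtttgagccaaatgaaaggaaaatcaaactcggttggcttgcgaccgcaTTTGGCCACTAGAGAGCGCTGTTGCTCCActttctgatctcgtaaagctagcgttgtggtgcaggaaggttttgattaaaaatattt
Hoxb peak 10: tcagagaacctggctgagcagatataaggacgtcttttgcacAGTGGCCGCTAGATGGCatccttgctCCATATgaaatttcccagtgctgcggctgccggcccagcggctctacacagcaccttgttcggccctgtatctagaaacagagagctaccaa
Hoxd peak 21: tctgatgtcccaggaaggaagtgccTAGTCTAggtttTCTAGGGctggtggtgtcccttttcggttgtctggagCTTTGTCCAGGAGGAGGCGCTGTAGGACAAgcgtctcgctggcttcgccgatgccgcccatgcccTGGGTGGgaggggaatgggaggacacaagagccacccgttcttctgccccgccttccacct
Hoxa peak 57: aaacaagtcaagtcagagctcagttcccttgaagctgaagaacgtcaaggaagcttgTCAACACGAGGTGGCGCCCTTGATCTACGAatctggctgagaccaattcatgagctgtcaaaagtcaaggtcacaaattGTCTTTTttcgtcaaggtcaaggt
Hoxb peak 1: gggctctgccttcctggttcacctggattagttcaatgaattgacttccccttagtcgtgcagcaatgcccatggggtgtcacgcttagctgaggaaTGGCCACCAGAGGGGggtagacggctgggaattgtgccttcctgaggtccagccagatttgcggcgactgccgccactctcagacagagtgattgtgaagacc

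The longest unbroken block of capitals ran from 15 bases in Hoxb peak 1 to 32 in Hoxc peak 7. The block of Hoxc peak 7, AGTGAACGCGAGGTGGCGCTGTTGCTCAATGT, shares 12 letters in a row, GCGCTGTTGCTC, with the 29-base block of Hoxd peak 13. These peaks lie at the same place in their clusters, between paralogues 9 and 8. Of all peaks, 9 of 84591 peaks in replicate 1 (0.0106%) and 9 of 112174 in replicate 2 (0.00802%) hold these 12 letters on either strand. The block of Hoxc peak 7 also shares 11 letters, CGAGGTGGCGC, with that of Hoxa peak 57, a run found in 0.0449% of peaks in replicate 1 and 0.0357% in replicate 2. With Hoxd peak 21 it shares GGCGCTGT, found in 1.41% of peaks in replicate 1 and 1.33% in replicate 2. The shared runs were looked for after the sequences had been seen and are a description.

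Hox promoters carried peaks about as often as promoters in general, and the Hoxa cluster carried the strongest ones. A promoter peak was found at 28 of the 39 Hox genes in replicate 1 (71.8%), 27 in replicate 2 (69.2%) and 25 in both (64.1%). Of all protein-coding genes, 65.2% had one in replicate 1, 67.6% in replicate 2 and 64.2% in both, so the shares of Hox genes lie near the background. Hoxa6, Hoxa13 and Hoxb13 had a promoter peak in replicate 1 alone, and Hoxb2 and Hoxb8 in replicate 2 alone. The 9 genes with none in either library were Hoxa2, Hoxb3, Hoxc4, Hoxc8, Hoxc9, Hoxc11, Hoxc12, Hoxd12 and Hoxd13. Because the tissue is a mix of cell types, accessibility in fewer cells and less accessibility per cell cannot be told apart. When only the principal transcript starts were used, 24 genes had a peak in each library and 21 in both. The difference in both arose because Hoxa9, Hoxc6 and Hoxd4 then had none in either library and Hoxc5 none in replicate 1. No share of all protein-coding genes at principal starts is given, so these counts cannot be set against a background.

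**Figure D1:**
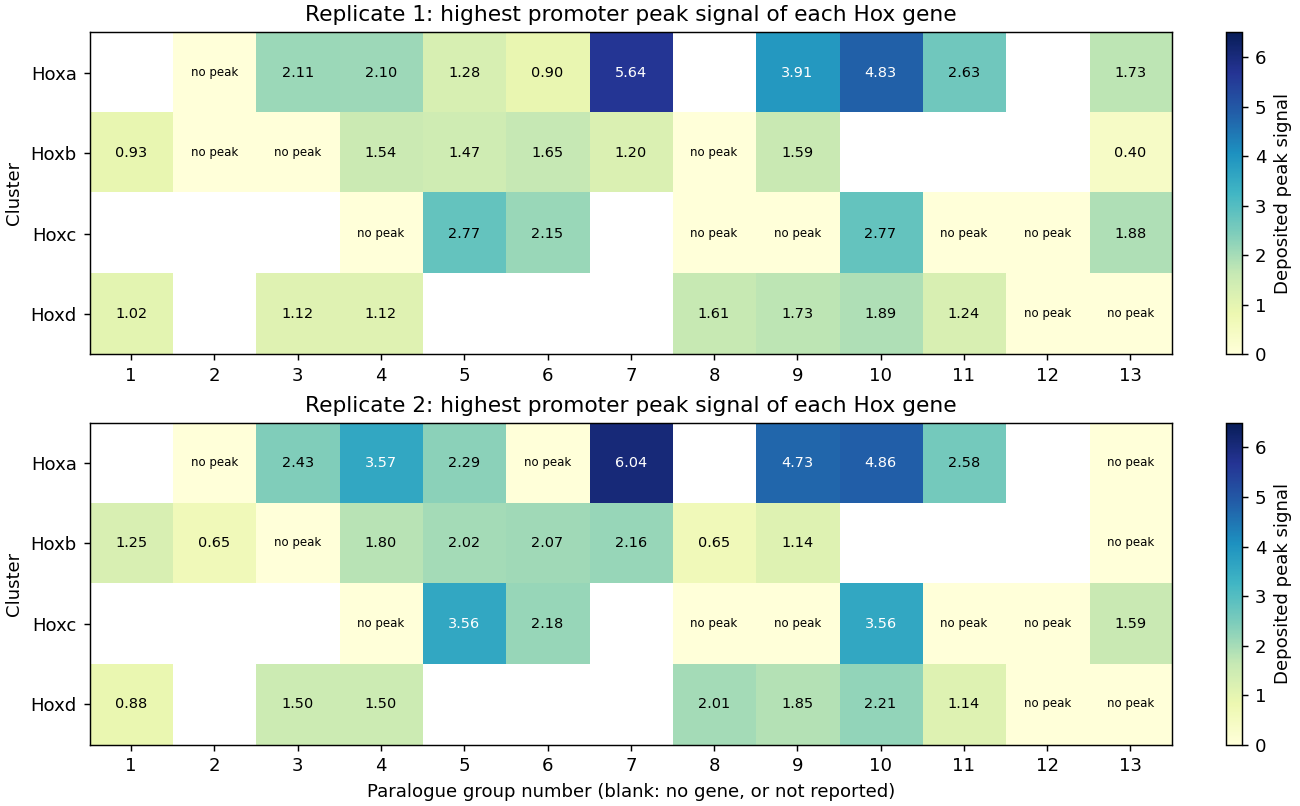
Deposited signal of the strongest promoter peak of each Hox gene in replicate 1 (top) and replicate 2 (bottom), with the paralogue group across and the cluster down. Blank cells have no gene, or a gene not reported here. Counting any start, Hoxa7, Hoxa9 and Hoxa10 are the darkest cells in both libraries, while both genes of paralogue group 12 have no peak.

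The share with a peak was also compared among genes split by promoter CpG content, since CpG-rich promoters are open in most tissues. A gene's promoter was called CpG-rich if the highest observed-to-expected CpG ratio over its starts was at least 0.6. This held for 29 of the 39 Hox genes and 11528 of all protein-coding genes. The peak could lie at another start of the gene than the one with the highest ratio. The median ratio was 0.722 for Hox genes and 0.627 for all genes. Of the 29 CpG-rich Hox promoters 22 had a peak in replicate 1 (75.9%), 21 in replicate 2 (72.4%) and 20 in both (69.0%). Among all CpG-rich genes 94.4% had one in replicate 1, 95.6% in replicate 2 and 93.9% in both. The 10 Hox genes with fewer CpGs had a peak in 6 cases in replicate 1 and 6 in replicate 2, while 32.9% of all such genes had one in replicate 1 and 36.6% in replicate 2. The share was thus lower for CpG-rich Hox promoters than for CpG-rich promoters in general in each library, and the difference was not tested. Of the 9 members with no peak 6 were CpG-rich.

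**Figure D2:**
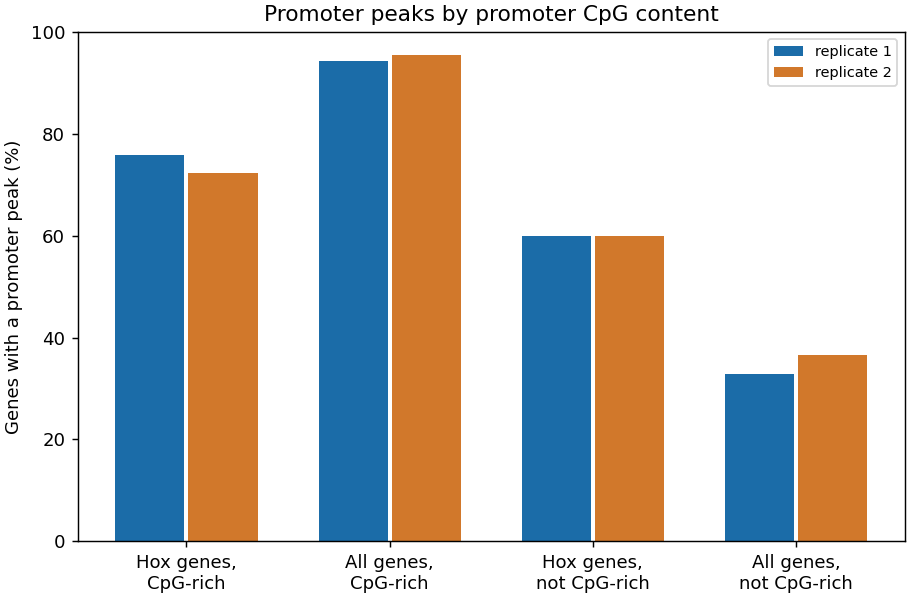
Percent of genes with a promoter peak in each replicate, for Hox genes and all protein-coding genes. Genes are split at a CpG ratio of 0.6, by the highest ratio over their starts. CpG-rich Hox promoters reach 75.9% in replicate 1 and 72.4% in replicate 2, beside 94.4% and 95.6% of all CpG-rich promoters.

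The 250 bases before 3 transcript starts, from the RefSeq promoter table on GRCm38.p6, show such promoters with and without a peak. The table matched 22 of the 39 members. The sequences are given 5′ to 3′ in the gene's direction, with each CpG in capitals. Hoxa10 (chr6:52234940-52235189, minus strand, an inner start of the gene) overlapped a peak in both libraries. Hoxa13 (chr6:52260881-52261130, minus strand) overlapped a peak in replicate 1 alone, and Hoxd13 (chr2:74667975-74668224, plus strand) overlapped none.
Hoxa10 promoter: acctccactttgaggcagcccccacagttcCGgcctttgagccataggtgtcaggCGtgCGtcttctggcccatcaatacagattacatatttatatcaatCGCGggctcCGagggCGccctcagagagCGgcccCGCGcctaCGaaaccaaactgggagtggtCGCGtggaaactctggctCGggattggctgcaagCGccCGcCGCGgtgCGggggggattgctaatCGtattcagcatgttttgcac
Hoxa13 promoter: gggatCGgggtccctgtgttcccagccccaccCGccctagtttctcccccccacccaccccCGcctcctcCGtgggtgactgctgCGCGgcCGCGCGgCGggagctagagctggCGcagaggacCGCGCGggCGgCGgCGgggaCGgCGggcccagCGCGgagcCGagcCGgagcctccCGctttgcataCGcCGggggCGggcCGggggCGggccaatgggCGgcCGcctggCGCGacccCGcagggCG
Hoxd13 promoter: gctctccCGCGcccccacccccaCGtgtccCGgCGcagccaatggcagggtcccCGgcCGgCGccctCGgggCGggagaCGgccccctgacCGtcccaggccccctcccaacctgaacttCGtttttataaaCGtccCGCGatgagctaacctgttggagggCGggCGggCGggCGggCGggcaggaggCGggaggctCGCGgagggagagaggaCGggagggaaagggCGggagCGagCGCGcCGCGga

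The stretches held 20 CpGs for Hoxa10, 35 for Hoxa13 and 31 for Hoxd13. Their CpG ratios of 0.913, 0.875 and 0.901 in the same order lie close together, and these 3 were chosen for their peak calls. Over all 24 stretches that the table gave, the 9 that overlapped a peak in both libraries had a median ratio of 0.759, with 7 at 0.6 or more. The 12 that overlapped no peak had a median of 0.462, with 3 at 0.6 or more, those of Hoxb4, Hoxb8 and Hoxd13. Overlap was read here over the 250 bases alone, not over 1 kb either side of a start. By the 1 kb rule Hoxb4 had a peak in both libraries, Hoxb8 in replicate 2 and Hoxd13 in neither. Among the 12, the stretches of Hoxa9, Hoxa10, Hoxb1, Hoxd4, Hoxd8 and Hoxd11 also belong to genes with a promoter peak in both. The medians thus describe stretches and not genes. The 250 bases before a second, outer Hoxa10 start had a ratio of 0.458 and overlapped no peak. The gene's strongest peak, with 4.83 in replicate 1 and 4.86 in replicate 2, lies inside the gene within 1 kb of that start.

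The anterior genes, paralogues 1 to 3, had promoter peaks of low to middling signal. They specify the hindbrain, the neural crest of the pharyngeal arches and the neck. A promoter peak was present at 5 of 8 anterior genes in replicate 1 and 6 in replicate 2. Hoxa3, needed for thymus and parathyroid, had a signal of 2.11 in replicate 1 and 2.43 in replicate 2. Hoxb1, a marker of a single hindbrain segment, had 0.929 in replicate 1 and 1.25 in replicate 2, and Hoxd1 had 1.02 in replicate 1 and 0.884 in replicate 2. Hoxd3 and Hoxd4 share a start region and therefore a peak, with 1.12 in replicate 1 and 1.50 in replicate 2. Neither gene of paralogue group 2 had a peak in both libraries. Hoxb2 had a peak of 0.645 in replicate 2 and none in replicate 1. Hoxa2, which patterns the second pharyngeal arch, had none in either library.

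The central genes, paralogues 4 to 8, act in the neck and trunk and include the strongest promoter of the family. A promoter peak was present at 12 of 15 in each library and at 11 in both. Hoxa7 (chr6:52214491-52221854) had 5.64 in replicate 1 and 6.04 in replicate 2, a mean of 5.84 ± 0.28 (SD, n = 2). That is the 75.4th percentile in replicate 1 and the 78.2nd in replicate 2 among genes with a promoter peak. An inner peak in an intron of Hoxa7, within 1 kb of another of its 5 starts, had 4.56 in replicate 1 and 4.17 in replicate 2. No other Hox gene had as many promoter peaks as Hoxa7, with 6 in replicate 1 and 10 in replicate 2. Hoxa4 had 2.10 in replicate 1 and 3.57 in replicate 2, and Hoxa5, which acts in lung and trachea, had 1.28 in replicate 1 and 2.29 in replicate 2. These 2 genes and Hoxb7 showed the widest gaps between the libraries among members with a promoter peak in both. Hoxb7 had 1.20 in replicate 1 and 2.16 in replicate 2.

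The other central genes of the Hoxb cluster lay close together. Hoxb4, known from blood stem cells, had 1.54 in replicate 1 and 1.80 in replicate 2. Hoxb5 had 1.47 in replicate 1 and 2.02 in replicate 2, and Hoxb6 had 1.65 in replicate 1 and 2.07 in replicate 2. Hoxb8 was the exception, with 0.645 in replicate 2 and no peak in replicate 1. In the Hoxc cluster, Hoxc6 had 2.15 in replicate 1 and 2.18 in replicate 2, while Hoxc4 and Hoxc8 had no peak. Hoxc5 counts as having one through a transcript that starts near Hoxc10, and at its own principal start it had none in replicate 1 and 1.01 in replicate 2. Hoxd8 had 1.61 in replicate 1 and 2.01 in replicate 2. Hoxa6 had 4 promoter peaks in replicate 1, the strongest of 0.895, and none in replicate 2.

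The posterior genes, paralogues 9 to 13, pattern the lower trunk, limbs and urogenital tract. A promoter peak was present at 11 of 16 in replicate 1, 9 in replicate 2 and 9 in both. Hoxa10, which patterns the uterus and lower spine, had 4.83 in replicate 1 and 4.86 in replicate 2, a mean of 4.85 ± 0.018 (SD, n = 2). Hoxa9, its neighbour, had 3.91 in replicate 1 and 4.73 in replicate 2. Hoxa11, known from kidney, limb and uterus, had 2.63 in replicate 1 and 2.58 in replicate 2, at a start shared with the antisense RNA Hoxa11os. Hoxa7, Hoxa10 and Hoxa9 thus had the 3 highest promoter signals of the family in both libraries when any start was counted. At the principal starts alone Hoxa7 was still the highest, with 4.56 in replicate 1 and 4.17 in replicate 2, while Hoxa10 had 2.34 in replicate 1 and 2.92 in replicate 2, below Hoxc10 in both, and Hoxa9 had no peak.

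Outside the Hoxa cluster the strongest posterior promoter was Hoxc10, a gene of lumbar motor neurons and hindlimb, with 2.77 in replicate 1 and 3.56 in replicate 2. Hoxd10 had 1.89 in replicate 1 and 2.21 in replicate 2, and Hoxd9 had 1.73 in replicate 1 and 1.85 in replicate 2. Hoxb9 had 1.59 in replicate 1 and 1.14 in replicate 2. All 3 genes of paralogue group 10 had a peak in both libraries. Hoxd11 had 1.24 in replicate 1 and 1.14 in replicate 2, from peaks that do not overlap each other.

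Of the 9 genes of groups 11 to 13, Hoxa11, Hoxd11 and Hoxc13 had a promoter peak in both libraries. Hoxc11, Hoxc12, Hoxd12 and Hoxd13 had no promoter peak in either library. Hoxc13, needed for hair and nails, is the 1 of 4 genes of group 13 with a peak in both, with 1.88 in replicate 1 and 1.59 in replicate 2. Hoxa13, which patterns the distal limb, the genital tubercle and the urogenital sinus, had 1.73 in replicate 1 from a peak of 72 bases and none in replicate 2. Hoxb13, known from prostate and tail, had 0.401 in replicate 1 and none in replicate 2, so the group 13 genes of the Hoxa and Hoxb clusters differ between the libraries in whether a peak was called.

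The deposited false discovery rate of the cut rate lists only bases under 0.05, so a promoter with no peak seldom has a listed base, and how far it lay below the threshold cannot be read from it. Hoxb3, with no peak, had 15 listed bases in replicate 1 with a lowest rate of 0.034. Of the 5 genes with a peak in 1 library, the lowest rate there was 3.0e-08 for Hoxa6, 0.0267 for Hoxa13, 0.0136 for Hoxb13, 0.0279 for Hoxb2 and 0.0142 for Hoxb8. Apart from Hoxa6, these rates lay above those of the 25 members with a peak in both libraries, the highest of which was 0.0075 at Hoxb7 in replicate 1.

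Among the 25 members with a promoter peak in both libraries the median signal was 1.73 in replicate 1 and 2.07 in replicate 2. For all 14085 protein-coding genes with one in both it was 3.33 in replicate 1 and 3.61 in replicate 2. The Hox median stood at the 27.5th percentile in replicate 1 and the 32.0th in replicate 2 of genes with a promoter peak. By cluster the medians in replicate 1 were 2.41 for 8 Hoxa genes, 1.51 for 6 Hoxb genes, 2.46 for 4 Hoxc genes and 1.24 for 7 Hoxd genes. In replicate 2 they were 3.08 for Hoxa, 1.91 for Hoxb, 2.87 for Hoxc and 1.50 for Hoxd. In both libraries the Hoxd genes had the lowest median, and Hoxa and Hoxc the higher ones. Hoxc5 and Hoxc10 have the same strongest peak, as do Hoxd3 and Hoxd4, so these peaks enter the medians and the 25 once for each gene. With only 4 Hoxc genes, the Hoxc median leans on that shared peak. In counts, the strongest peak of the 25 held 662 cuts or reads in replicate 1 and 684 in replicate 2, if 1 step of the signal is 1 such unit, which the files do not state. Signal was lower in replicate 1 for 19 of the 25, while 59.3% of all genes with a promoter peak in both were lower in replicate 1.

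Along the chromosome the 4 clusters differed in how much of them was open. The Hoxa cluster (chromosome 6, 105 kb) was the most open, with 45 peaks in its window in replicate 1 and 46 in replicate 2. Its density was 2.22 ± 0.034 peaks per 10 kb (SD, n = 2), beside 0.361 ± 0.072 over all chromosomes. Within its span alone the density was 3.94 ± 0.067 and in the flanks 0.40 ± 0.14, so the Hoxa peaks were concentrated between its outer genes. Peaks covered 9.32% of the span in replicate 1 and 9.57% in replicate 2. The longest stretch with no peak in either library was 16.3 kb, in an intron of Hoxa3 before Hoxa4.

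The Hoxb cluster (chr11:96194316-96368256, 174 kb) had 23 window peaks in replicate 1 and 29 in replicate 2, or 0.949 ± 0.15 per 10 kb. Hoxb9 to Hoxb4 had a promoter peak at each gene in at least 1 library, and a closed stretch of 31.9 kb then ran from Hoxb4 across Hoxb3 to Hoxb2. The Hoxd cluster (chr2:74668310-74765142, 96.8 kb) had 16 window peaks in replicate 1 and 21 in replicate 2, or 0.940 ± 0.18 per 10 kb. Its peaks ran from Hoxd11 to an intron of Hoxd3, and the next 33.6 kb were closed as far as the noncoding RNA Haglr beside Hoxd1. Repeats take up 13.4% of the Hoxa span, 24.6% of Hoxb, 15.9% of Hoxc and 14.4% of Hoxd, against 36.4% of all chromosomes.

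The Hoxc cluster (chr15:102921103-103036852, 116 kb) was the least open, with 12 window peaks in replicate 1 and 14 in replicate 2. Its density of 0.603 ± 0.066 per 10 kb was still above that over all chromosomes. In the span 5 peaks were found in replicate 1 and 8 in replicate 2, covering 0.769% in replicate 1 and 1.14% in replicate 2. A stretch of 41.6 kb from Hoxc13 to the peaks before Hoxc10 held no peak. It contains Hoxc12, the noncoding RNA Hotair and Hoxc11. In the Hoxc cluster open sites were few but included Hoxc peak 7, second of all 4 windows by mean signal over the 2 libraries. That rank rests on replicate 2, where it had 6.83 and was the strongest. In replicate 1 it had 2.87, below several peaks of the Hoxa cluster and Hoxd peak 21.

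**Figure D3:**
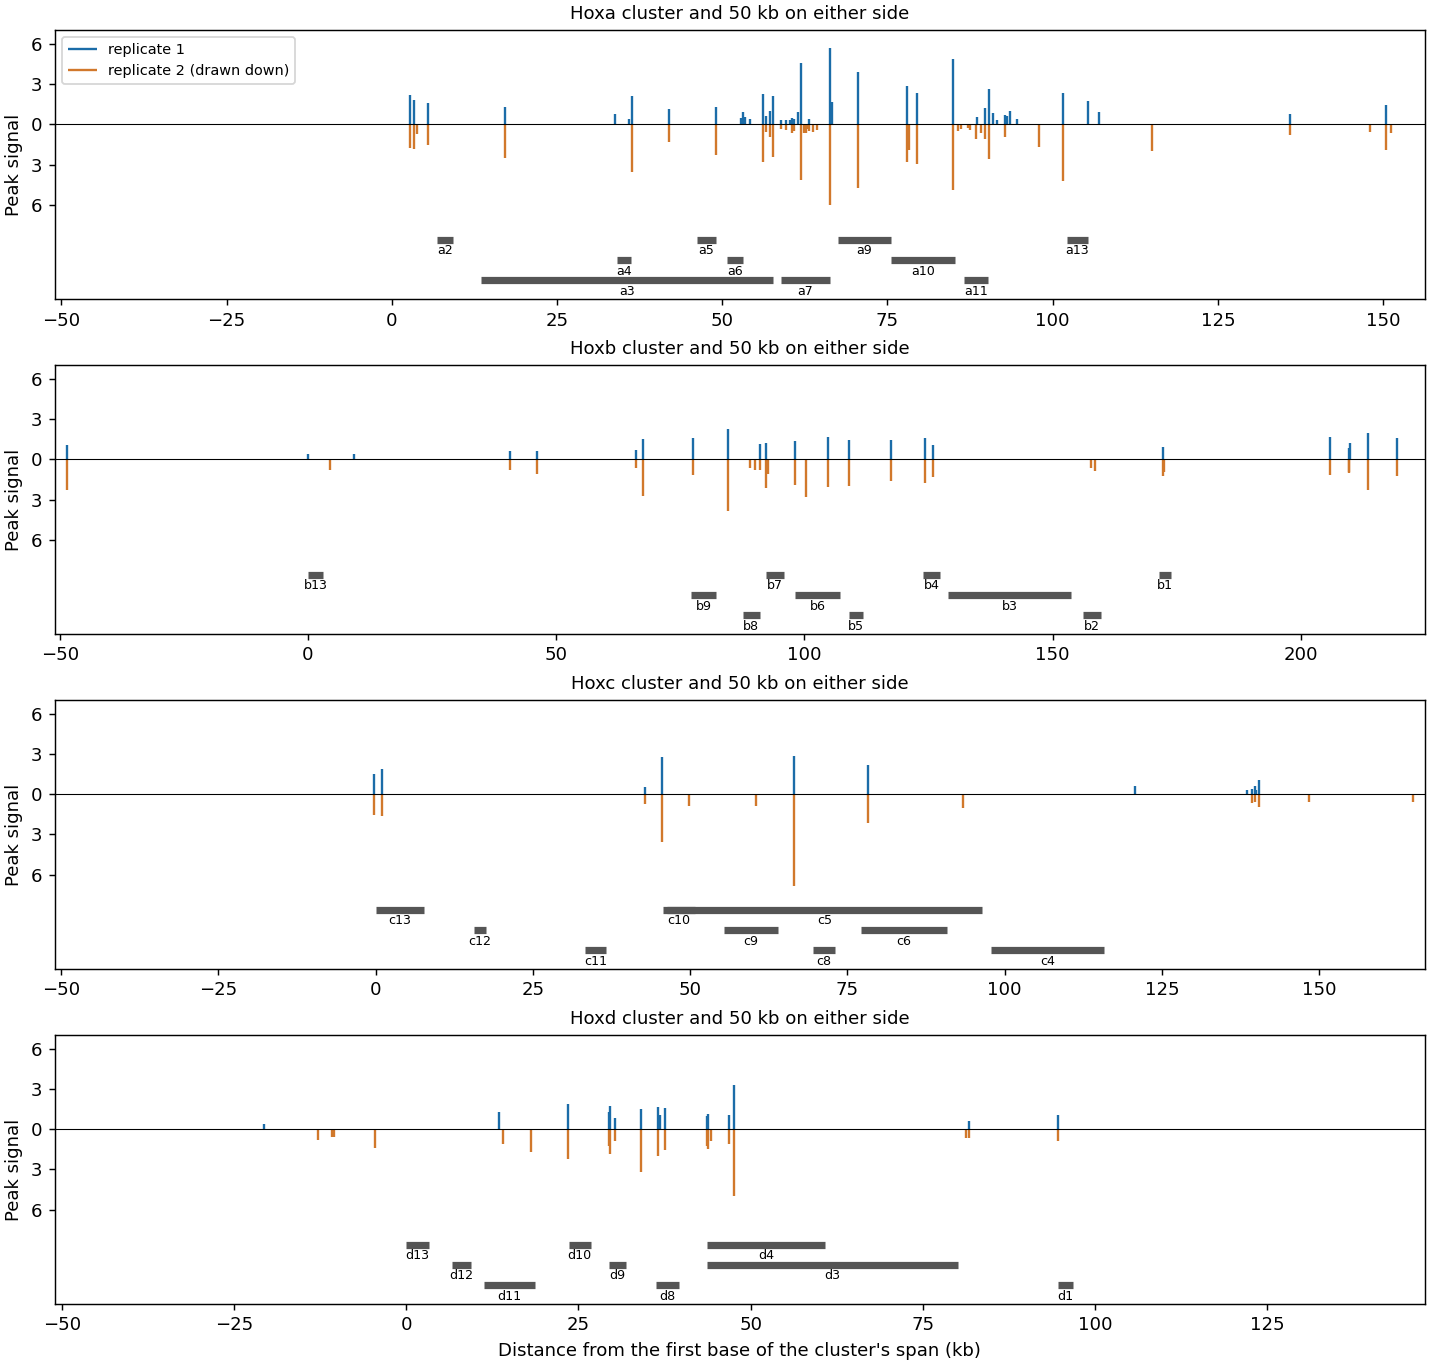
Peaks of the 4 cluster windows as vertical lines at their distance from the first base of the span in kb, with the signal of replicate 1 drawn up and that of replicate 2 drawn down. Gray bars are Hox genes. The Hoxa peaks crowd over Hoxa3 to Hoxa11, while the 41.6 kb of Hoxc from Hoxc13 to Hoxc10 are empty.

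By class, 49 of the 96 window peaks in replicate 1 and 54 of 110 in replicate 2 lay at a Hox start. Another 16 in replicate 1 and 13 in replicate 2 lay at the start of another gene, and 31 in replicate 1 and 43 in replicate 2 were distal. Distal peaks numbered 9 in replicate 1 and 13 in replicate 2 in Hoxa, and 14 in replicate 1 and 16 in replicate 2 in Hoxb. In Hoxc they numbered 6 in replicate 1 and 8 in replicate 2, and in Hoxd 2 in replicate 1 and 6 in replicate 2.

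The 10 strongest paired peaks of the windows hold 6 promoter peaks of Hoxa7, Hoxa9, Hoxa10 and Hoxc10. The 6 include the inner peak of Hoxa7 and an inner peak of Hoxa10, which had 2.88 in replicate 1 and 2.83 in replicate 2. The other 4 are Hoxc peak 7, Hoxd peak 21, Hoxa peak 57 and Hoxb peak 10, whose sequences stand above. Hoxc peak 7 had 2.87 in replicate 1 and 6.83 in replicate 2, a mean of 4.85 ± 2.8 (SD, n = 2), and was the strongest window peak of replicate 2. Hoxd peak 21 had 3.27 in replicate 1 and 4.99 in replicate 2, and Hoxa peak 57 had 2.31 in replicate 1 and 4.20 in replicate 2. Hoxb peak 10 had 2.27 in replicate 1 and 3.83 in replicate 2. All 4 of these sites were stronger in replicate 2, with log2 ratios of replicate 1 to replicate 2 between -1.11 and -0.47, while those of the 6 promoter peaks lay between -0.22 and 0.27. These ratios are centred on the median of all paired peaks.

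Of the Hox window peaks 75.0% in replicate 1 (72 of 96) overlapped a peak of replicate 2, and 66.4% in replicate 2 (73 of 110) overlapped one of replicate 1. For all peaks the shares were 84.7% in replicate 1 and 64.1% in replicate 2. The signal of 68 one-to-one pairs in the Hox windows was compared as the log2 ratio of replicate 1 over replicate 2, centred on the median of all 70427 pairs. The Hox median was -0.10, with 27 pairs above 0 and 41 below, and 14 of the 68 (20.6%) lay more than 1 SD of all pairs (0.50) from 0, beside 29.6% of all pairs. Hoxb had the lowest median at -0.19, with 4 pairs above 0 and 15 below. With 1 library on either side these ratios have no error of their own.

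The 3 pairs with the lowest ratios were distal sites. The 36 Hox promoter pairs ran from -0.71, at Hoxb7, to 0.63, at Hoxb9, with a median of 0.00. The 23 distal pairs ran from -1.11 to 0.67 with a median of -0.16. The 9 pairs at the start of another gene ran from -0.84 to 0.20 and had the lowest median, -0.47. No median by class is given for all pairs. The lowest ratios were -1.11 at Hoxc peak 7, -0.97 at Hoxd peak 13, -0.97 at Hoxb peak 1, -0.84 at the start of the antisense RNA Gm15050 inside Hoxa3, and -0.72 at the start of the noncoding RNA Gm53 between Hoxb13 and Hoxb9. Hoxd peak 13 had 1.48 in replicate 1 and 3.22 in replicate 2, and Hoxb peak 1 had 1.05 in replicate 1 and 2.26 in replicate 2. At the high end stood promoters, with 0.63 at Hoxb9 and 0.39 at Hoxc13, and 2 distal peaks beyond Hoxb1, with 0.67 at Hoxb peak 28 and 0.49 at Hoxb peak 33. The 3 sites between paralogues 9 and 8, Hoxc peak 7, Hoxd peak 13 and Hoxb peak 10, were all stronger in replicate 2, with ratios of -1.11, -0.97 and -0.61 in that order. The mouse Hoxa cluster has no Hoxa8 and so no such interval.

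**Figure D4:**
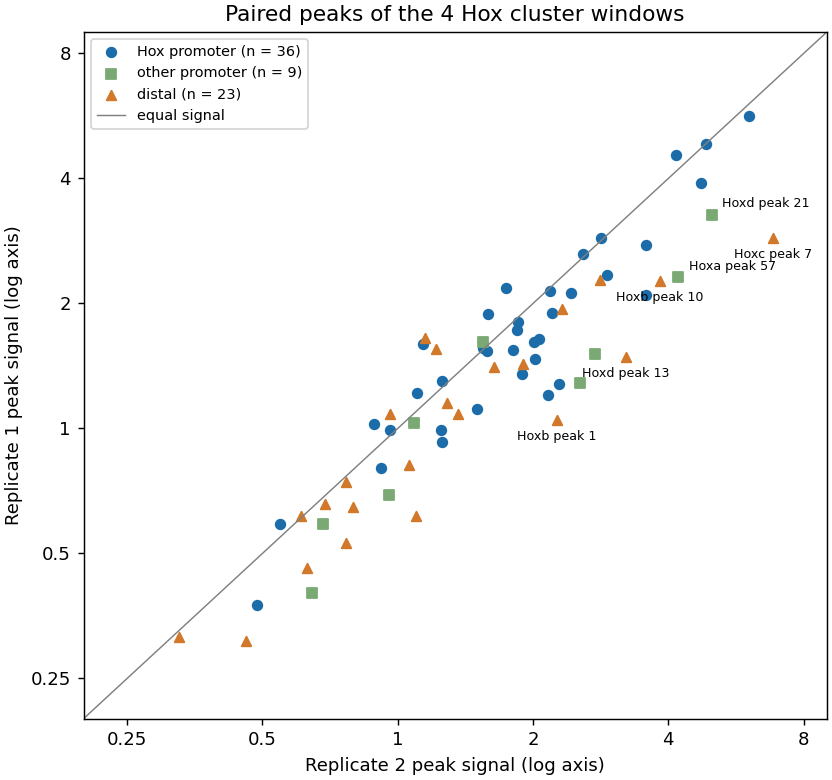
Signal of the 68 paired peaks of the Hox windows on log axes, with replicate 1 on the vertical axis, replicate 2 on the horizontal axis and 1 point per pair. The line marks equal deposited signal, without centring. Hoxc peak 7, Hoxd peak 13 and Hoxb peak 1 lie farthest below it, with uncentred log2 ratios of -1.25, -1.12 and -1.11, and the Hox promoter pairs spread from -0.85 to 0.48.

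A strict match to the CTCF core, by name, in the 200 bases about the peak centre was found in 1 of 96 Hox window peaks in replicate 1 (1.04%) and 2 of 110 in replicate 2 (1.82%). Of all peaks 6.08% held one in replicate 1 and 6.26% in replicate 2. None of the 49 Hox promoter peaks in replicate 1 or the 54 in replicate 2 held one, beside 2.44% and 2.56% of all promoter peaks. Hox promoter peaks were 49 of the 96 window peaks in replicate 1, while promoter peaks were 27285 of all 84591. The shares over all peaks thus compare unlike mixes of peak classes. The match found in both libraries is that of Hoxb peak 10 at chr11:96278948-96278959 on the plus strand, inside a footprint in both libraries. The other lies in Hoxd peak 2, in Evx2, which was called in replicate 2 alone with a signal of 0.778. When 1 mismatch was allowed, an alternative added after seeing the data, 13 Hox window peaks in replicate 1 (13.5%) and 17 in replicate 2 (15.5%) matched, beside 18.6% of all peaks in replicate 1 and 19.8% in replicate 2. Hoxd peak 13 and Hoxb peak 1 were then among the matches, and Hoxc peak 7, Hoxd peak 21 and Hoxa peak 57 were not. Matches with more than 1 mismatch were not looked for.

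Letters that homeodomain factors bind were present in a minority of Hox promoter peaks. TGATNNAT, a site of HOX proteins together with their TALE partners, was found on either strand in 4 of 49 Hox promoter peaks in replicate 1 (8.16%) and 6 of 54 in replicate 2 (11.1%). In all promoter peaks the shares were 2.21% in replicate 1 and 2.57% in replicate 2. Over all Hox window peaks it was found in 5.21% in replicate 1 and 7.27% in replicate 2, near the 5.26% and 5.86% of all peaks. TTTATNG, the posterior HOX site, was found in 6.12% of Hox promoter peaks in replicate 1 and 5.56% in replicate 2, beside 3.27% and 3.73% of all promoter peaks. In window peaks its shares were 9.38% in replicate 1 and 7.27% in replicate 2, beside 5.83% and 6.43% of all peaks. TAATTA, the core of many homeodomain sites, was found in 1 of 49 Hox promoter peaks in replicate 1 (2.04%) and 3 of 54 in replicate 2 (5.56%), beside 0.949% and 1.15% of all promoter peaks. In window peaks it was found in 1 of 96 in replicate 1 (1.04%) and 8 of 110 in replicate 2 (7.27%), beside 1.88% and 2.35% of all peaks, so the libraries lie on opposite sides of the background. AGATAA, the GATA site, was found in 8.33% of Hox window peaks in replicate 1 and 9.09% in replicate 2, near the 7.80% and 8.34% of all peaks. In Hox promoter peaks it was found in 2.04% in replicate 1 and 3.70% in replicate 2, beside 3.29% and 4.10% of all promoter peaks. The retinoic acid direct repeat with a spacer of 5, by name, was in none of the Hox window peaks, and in 0.139% of all peaks in replicate 1 and 0.133% in replicate 2. At these counts, 1 peak more or less moves a share by about 1 to 2 percentage points.

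Footprints were less dense in Hox window peaks than in all peaks in each library, by more in replicate 2. Hox window peaks held 9.40 footprints per kb of peak in replicate 1 and 8.19 in replicate 2, beside 9.87 and 9.73 in all peaks. At Hox promoter peaks the density was 9.07 per kb in replicate 1 and 6.76 in replicate 2, and 73.5% of them in replicate 1 and 66.7% in replicate 2 held a footprint. No such values are given for all promoter peaks. At least 1 footprint lay in 74.0% of Hox window peaks in replicate 1 and 78.2% in replicate 2, beside 76.9% and 76.1% of all peaks. Hoxa7 had the most footprints over its promoter peaks, with 9 in replicate 1 and 14 in replicate 2, and Hoxa10 had 8 in replicate 1 and 10 in replicate 2. Hoxb2, Hoxb8 and Hoxb13 had a promoter peak in 1 library with 0 footprints in it. The median GC content of Hox window peaks was 58.3% in replicate 1 and 59.0% in replicate 2, beside 53.5% and 52.0% for all peaks.

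The noncoding RNAs of the clusters followed their neighbours where they share a start. Haglr shares the Hoxd1 peak and Hoxa11os the Hoxa11 peak. Hoxd3os1 had the strongest noncoding start, at Hoxd peak 21. Gm53 had 1.51 in replicate 1 and 2.75 in replicate 2. Halr1, in the flank of the Hoxa cluster, had 0.401 in replicate 1 and 1.04 in replicate 2. Hottip, which lies beyond Hoxa13 and is known to keep posterior Hoxa genes active in human cells, had 0.921 in replicate 1 and no peak in replicate 2. Hotair, an RNA of the Hoxc cluster studied for its tie to Polycomb, had no peak in either library. None was found within 1 kb of the hairpins of Mir10a, Mir10b, Mir196a-1, Mir196a-2 and Mir196b, while Mir615 lies at a Hoxc5 start with a peak of 1.01 in replicate 2. Evx1, the homeobox gene next to Hoxa13, had 0.648 in replicate 1 and 0.530 in replicate 2, and Evx2, next to Hoxd13, had no promoter peak.

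Genes that work with or on Hox genes were open at the promoter in both libraries. The TALE cofactors, homeodomain proteins that bind DNA jointly with HOX proteins, had a peak in both libraries at 9 of 9 genes. Pknox1 had 7.89 in replicate 1 and 7.60 in replicate 2, and Pbx3 had 4.82 in replicate 1 and 5.43 in replicate 2. Polycomb genes had one in both at 16 of 16, led by Cbx8 with 9.70 in replicate 1 and 9.71 in replicate 2, Jarid2 with 10.7 and 8.62, and Ezh2, the histone H3 lysine methyltransferase, with 7.08 and 7.26. Trithorax genes had one in both at 6 of 6, led by Kdm6a, a demethylase that removes the Polycomb mark, with 15.2 in replicate 1 and 12.3 in replicate 2. Kmt2a, a methyltransferase required to maintain Hox expression, had 7.18 in replicate 1 and 8.22 in replicate 2, and Kmt2b had 8.23 in replicate 1 and 6.42 in replicate 2. The retinoic acid receptors, which switch on Hox genes in the embryo, had one in both at 3 of 3. Rarg had 7.17 in replicate 1 and 5.36 in replicate 2, Rara had 3.57 and 3.34, and Rarb had 2.05 and 2.26. The background for a peak in both libraries is the 64.2% of all protein-coding genes, or 93.9% of those with a CpG-rich promoter, so near-complete lists of widely expressed genes are common. The lists name genes of known roles and say nothing of which bladder cells use them.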

How the data were processed

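DNase-seq data of 2 libraries were used, both mapped to mm10 per the deposited file listing. Aligner, peak caller and versions: not given in the sources used here. The authors deposited, per library and not pooled, a longer and a shorter peak list with a signal for each peak, footprints, and stretches of cut-rate false discovery rate. The deposited signal rises in equal steps, of 0.00853 in replicate 1 and 0.00884 in replicate 2 (100% of peaks whole within 0.02), and the median peak held 96 steps in replicate 1 and 86 in replicate 2. The factor and the total depth are not stated. The deposited false discovery rate is on the p-value scale and lists bases under 0.05, and the footprint lists hold the p-value threshold 0.01 in every row, so footprints were not ranked.

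From these, peaks of the longer list were assigned to genes with Python 3.11.15 and NumPy 2.4.6, using GENCODE M21 with 93513 protein-coding starts, on chromosomes 1 to 19, X and Y. The overlap lookup was tested on simulated intervals. The motif check searched for planted copies of TGATNNAT with a pattern of its own, so the steps behind the motif shares were not tested. The CpG ratio was taken over 1001 bases about each start, and the highest ratio over a gene's starts was kept. An overlap of 1 bp or more made a peak shared, and signal was compared in one-to-one pairs. Values are given per library or as mean and SD, n = 2. No p-value was computed. The members, gene lists, motifs and naming rule were chosen with earlier results of these data known. The rule names every member, the 10 strongest window peaks, the 5 highest and 5 lowest ratios, peaks with a CTCF match in both libraries, and of each list the 3 strongest genes and those with no peak. Values of a few genes under this rule are not reported here.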

Additional observations from a re-analysis of the deposited data

How the results depend on the processing

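No paired analysis was possible because the study has 1 group. Over 11 summary values and 60 alternatives, 50 stayed close to the value given, 10 moved and none reversed. Close meant within 1 SD for the log2 ratio, and within 1.5 times for counts, shares, densities and signals. That limit is wide. The share of all protein-coding genes with a promoter peak, 66.4% as the mean of the libraries, counted as close at 95.0% with CpG-rich promoters only. The share of CpG-rich Hox promoters was lower than that, as given above. Footprint density with the shorter list also counted as close, although it lay above the main value of each library. The number of Hox genes with a promoter peak averaged 27.5 per library. Over the alternatives it stayed between 22.5, with the shorter peak list, and 28, in replicate 1 alone. Taking the sum of promoter peaks in place of the strongest moved the median Hox promoter signal from 1.90 to 3.02. Without the 50 kb flanks the density was 3.94 peaks per 10 kb for Hoxa and 1.65 for Hoxd. With the shorter list it was 0.548 for Hoxb, 0.301 for Hoxc and 0.457 for Hoxd, and with the 42295 strongest peaks of each library 1.19 for Hoxa and 0.278 for Hoxc. The share of window peaks with a CTCF match was 2.25% with the shorter list and 14.5% with 1 mismatch allowed, beside 1.43%. These alternatives hold other peaks or other lengths by construction. Each library on its own gave 27 to 28 Hox genes with a peak. The total depth is not stated, so whether depth sets the weakest calls was not tested.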

Other observations

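Other homeobox genes of axial patterning were also read at their promoters, beside 64.2% of all protein-coding genes with a peak in both libraries. Of the 6 ParaHox genes, the sister family of the Hox clusters, Gsx1 had a promoter peak in both libraries, with a signal of 1.18 in replicate 1 and 1.86 in replicate 2. Cdx4 had 0.290 in replicate 1 and none in replicate 2, and Cdx1, Cdx2, Gsx2 and Pdx1 had none in either. Of the 8 genes that pattern the head and forebrain, 4 had a peak in both libraries. Lhx2 had 1.50 in replicate 1 and 1.23 in replicate 2, Emx2 had 0.836 and 1.52, and Otx1 had 1.01 and 1.01. Otx2, Six3 and Lhx5 were among those with none in either library. These values lie below those of Hoxa7, Hoxa9 and Hoxa10 in both libraries, which were the highest of the family when any start was counted. Those of Gsx1, Lhx2 and Otx1 lie within the range of the 25 Hox genes with a promoter peak in both. That range ran from 0.929 to 5.64 in replicate 1 and from 0.884 to 6.04 in replicate 2. Emx2 lay below it in replicate 1 and within it in replicate 2.

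Weak peaks that were called in 1 library ran together in parts of the Hoxa cluster. In replicate 1 all 4 peaks at Hoxa6 were without a counterpart in replicate 2, and a peak of 1.02 in Hoxa11os held 9 footprints in replicate 1 and was not called in replicate 2. In replicate 2 a distal peak of 2.83 in an intron of Hoxb6 was not called in replicate 1, the strongest window peak found in 1 library alone. The cause was not tested.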
